A study of Danio rerio with 5 samples.

Results

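The genes described here are those of DNA replication and mitosis, measured in young adult zebrafish of the wild-type AB line. They were chosen by name, from gene symbols in the platform's probe annotation. Those of replication were licensing factors and subunits of the origin recognition, MCM, CDC45, GINS, primase, polymerase, clamp, clamp loader and RPA complexes. Those of the cycle were A, B and E cyclins, cdk1, cdk2, CDC25 phosphatases, and polo and aurora kinases. For the spindle checkpoint and kinetochore, the symbols were cdc20, birc5, ndc80, nuf2 and those starting with bub, mad2l or cenp. Other checkpoint and kinetochore genes, such as ttk, knl1 and spc24, were not members and belong to a further list of mitosis genes. Of 8793 genes paired with exactly 1 symbol, 68 were members, and where a gene had several probe sets, that of highest mean over the arrays stood for it.

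Fish were exposed for 24 h without food to the vehicle DMSO, to benzene, to toluene, to formaldehyde, or to a mixture of benzene, toluene and formaldehyde called the BTF mix, with the compounds prepared in DMSO. Total RNA of each of the 5 conditions was hybridised to 1 Affymetrix 3' expression array, so there is no spread between replicates, no test was possible, and each difference below describes a pair of arrays. Neither the tissue nor the doses nor how many fish went into an array is stated in the sources used here, and the single label for sex is the same for every array and names neither males nor females. The deposited values lay between 3.15 and 15.04 and were taken as log2 values from that range. The array values have no absolute unit and depend on each gene's probes. Genes are therefore compared by their differences between arrays and never singly by their levels. Levels only state the range in which a set of genes lay.

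A dividing cell copies its DNA from origins that were licensed beforehand. The origin recognition complex, with cdc6 and cdt1, loads the ring of mcm2 to mcm7 onto DNA, geminin blocks this loading once the S phase has begun, and cdc45 and GINS turn the ring into an active helicase for the polymerases. Cyclins bound to cdk1 and cdk2 then drive the cycle, and the polo and aurora kinases, the kinetochore and the spindle checkpoint part the chromosomes. Oocytes of fish and frogs store transcripts and proteins of this machinery in bulk, because the first divisions of the embryo run without transcription from its own genome.

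The BTF mix array stood apart from the other arrays in these genes, as it did across the whole platform. Over the probe sets, the other 4 arrays correlated with each other at 0.979 to 0.992, while the mix array correlated with them at 0.692 to 0.739. A list of oocyte genes differed in the same comparison: 21 of 23 measured were at least 2-fold lower on the mix array than with DMSO, with a median difference of -6.95, and their summed signal, taken out of the log scale, was 222075 with DMSO, 213708 with benzene, 212184 with toluene, 222612 with formaldehyde and 6061 with the mix. Of the listed genes, zar1 (13.74, 13.62, 13.67, 13.61 and 6.14 in the same order), buc (12.90, 12.40, 12.56, 12.57 and 5.74) and zp3b (13.69, 13.56, 13.53, 13.46 and 6.13) were low on the mix array only. They were picked as examples after their values were seen. The other 2 of the 23, sycn.2 (2.31) and rgcc (3.96), were at least 2-fold higher with the mix. Over all genes, 27.8% were at least 2-fold lower with the mix and 20.6% higher. Fewer cells of a type and less RNA per cell cannot be told apart in RNA of bulk samples, and the part of the oocyte transcripts in the differences below was not tested.

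Against DMSO, 60 of the 68 genes were lower by 2-fold or more on the BTF mix array and 1 was higher by that much. The background was wide: over all 8793 genes, 27.8% were that much lower with the mix and 20.6% that much higher. Among the 5636 genes whose mean on the 3 single-compound arrays reached the median of all values, 7.02, the share at least 2-fold lower was 41.6%, and of the 63 members in that range 60 were. The members' median difference was -2.32 (interquartile range from -3.57 to -1.69), against -0.01 over all genes. Relative to each of the 4 other arrays taken singly, the same 60 members were at least 2-fold lower, where 23.5% of all genes were, and 1 was that much higher, where 17.6% were, so these counts do not rest on the DMSO array alone. At a limit of 1.5-fold against DMSO, 63 members were lower and 2 higher, where 36.0% and 28.8% of all genes were. A difference of at least 16-fold below DMSO was seen for 13 members, or 19.1%, and for 2.31% of all genes. Of the shares of lower genes, only the 41.6% was limited by level. The others, and the median over all genes, include genes under that range, which have less room for a lower value. Since 63 of the 68 members lay in the range, these contrasts depend in part on level. The 41.6% was not matched to the members' levels either, and genes just above 7.02 also have little room for a lower value. With DMSO the median member lay at percentile 84.7 among genes, and 21 of the 68 were in the top 10%. No share was computed for genes of that level, at 2-fold or at 16-fold.

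**Figure D1:**
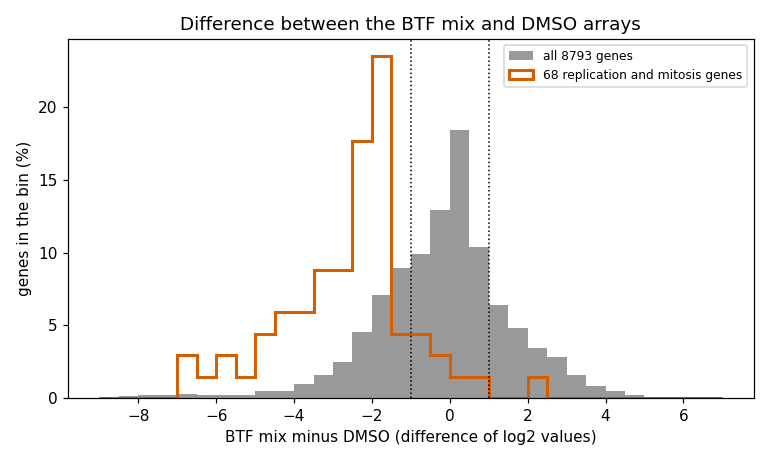
Difference between the BTF mix and DMSO arrays (horizontal axis, log2 units) as the percentage of genes in each bin (vertical axis), for all 8793 genes (grey) and for the 68 replication and mitosis genes (orange outline); dotted lines mark 2-fold. The replication and mitosis genes have a median of -2.32 and lie mostly left of the lower line, while all genes centre on -0.01.

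The 2-fold limit ran through the gene set at pole4, with a difference of -1.04, which was counted, and plk4, with -0.9995, which was not. On the mix array 31 members lay below 7.02, against 5 with DMSO. The deposited table holds no detection calls, so for members that low on the mix array the difference from DMSO may be understated. The sizes and folds printed below for such members are values only and give no firm ranking among them. No pair of members lay next to each other or 1 gene apart in the gene order of the RefSeq annotation.

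**Figure D2:**
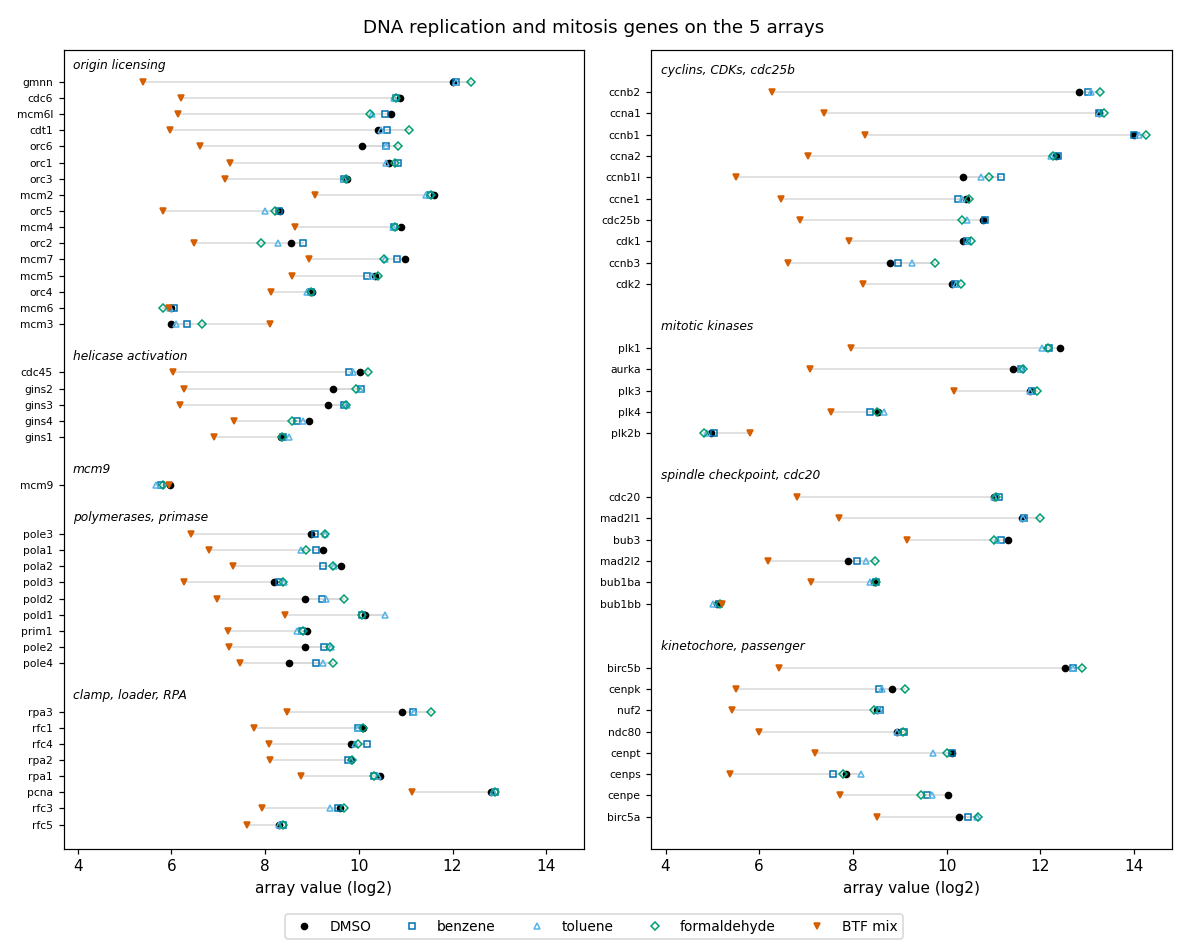
Array value (horizontal axis, log2) of each of the 68 genes on the 5 arrays, 1 row per gene, grouped by role and ordered by the difference between the mix and DMSO; each symbol is 1 array. In most rows the DMSO, benzene, toluene and formaldehyde symbols lie together and the BTF mix symbol lies to the left, with mcm3 and plk2b to the right and mcm6, mcm9 and bub1bb overlapping.

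Origin licensing genes were mostly lower with the mix, with mcm3, mcm6 and orc4 as exceptions. Of 16 measured, 13 were at least 2-fold lower on the mix array and 1 was higher, with a median difference of -2.53. Beside this and the role counts below stand 27.8% of all genes at least 2-fold lower and 20.6% higher. After loess normalization, 20.6% of all genes were at least 2-fold lower. Geminin (gmnn), the inhibitor of licensing, had array values of 12.01 with DMSO, 12.07 with benzene, 12.07 with toluene, 12.40 with formaldehyde and 5.40 with the mix. The first 4 arrays were close and the mix array was low by 98.1-fold against DMSO, a difference of -6.62. The loading factors cdc6 and cdt1 had differences of -4.67 and -4.44. Of the origin recognition subunits, orc6 lay at -3.45, orc1 at -3.39, orc3 at -2.61, orc5 at -2.51 and orc2 at -2.08, while orc4, at -0.89, did not reach 2-fold.

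The subunits of the MCM ring did not differ by the same amount, although they work as a ring of 6 different proteins. In the order DMSO, benzene, toluene, formaldehyde and mix, which is kept for every row of 5 values from here on, mcm2 read 11.60, 11.52, 11.43, 11.54 and 9.06. It was low with the mix, with a difference of -2.54, and mcm4, mcm7 and mcm5 were likewise lower, at -2.26, -2.05 and -1.77. The copy mcm6l read 10.68, 10.55, 10.28, 10.24 and 6.14, a difference of -4.54, and its other probe set gave -4.31. The gene mcm6 itself read 5.98, 6.06, 5.96, 5.83 and 5.95, so the mix array lay within the range of the other 4, and all 5 values were below 7.02. In the frog, mcm3 and mcm6 each exist as a maternal and a zygotic form, the latter taking over as the embryo begins transcription.

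The mcm3 gene went the other way from the ring genes that were lower. It read 5.99, 6.33, 6.10, 6.66 and 8.11, highest on the mix array and 2.12 above DMSO on the log2 scale, the one member at least 2-fold higher there. Its other probe set read 6.39, 6.61, 6.42, 6.53 and 6.81, highest on the same array but only 0.42 above DMSO. The size of the gap thus depends on the probe set. The mean that chose between them included the mix array, and the value of 8.11 decided the choice. With DMSO, benzene and toluene the other probe set read higher. Apart from 8.11, every value of both probe sets was below 7.02. The related mcm9, which acts in repair by recombination and not in the ring, read 5.96, 5.77, 5.68, 5.82 and 5.94, all below 7.02, and did not separate the mix array from the others.

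**Figure D3:**
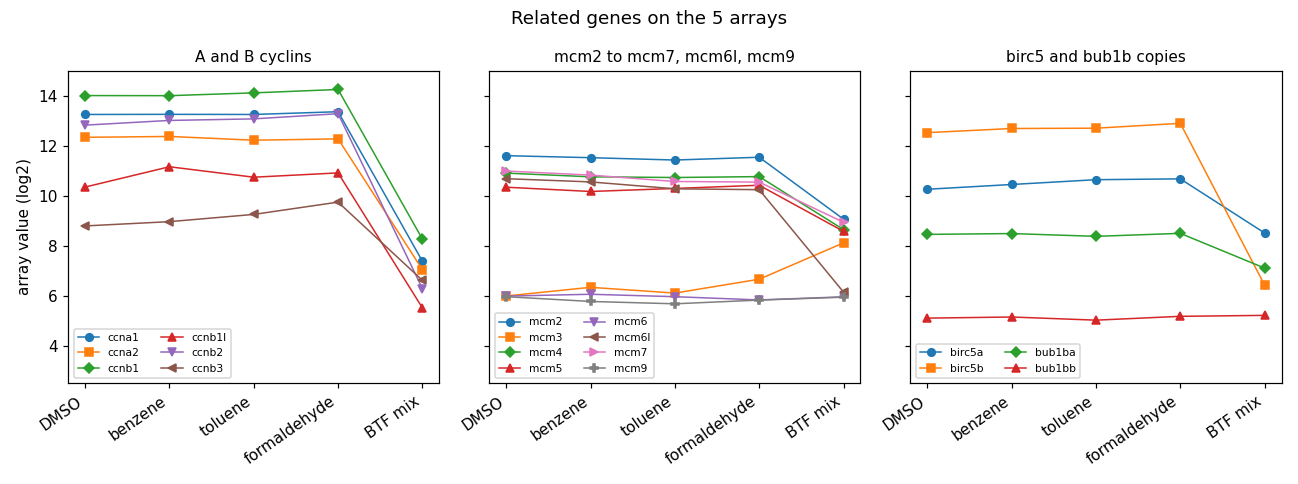
Array values (vertical axis, log2) of related genes on the 5 arrays (horizontal axis), with lines only to guide the eye. On the mix array the cyclins, mcm2, mcm4, mcm5, mcm6l, mcm7, birc5b and, less so, birc5a and bub1ba are lower, mcm3 is higher, and mcm6, mcm9 and bub1bb stay near their values on the other arrays.

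All 5 genes measured for the activation of the helicase were at least 2-fold lower with the mix, with a median difference of -3.17. The gene for cdc45, which forms the working helicase with the MCM ring and GINS, read 10.03, 9.79, 9.87, 10.20 and 6.04. Its value with the mix lay well below the range of the other 4 arrays, at -3.99 against DMSO. Within the GINS complex, gins2 and gins3 both lay at -3.17, gins4 at -1.60 and gins1 at -1.43, all lower but 3 of them below 7.02 on the mix array. After loess normalization gins1 and gins4 no longer reached 2-fold, which left 3 of the 5 genes. The gins1 values were 8.35, 8.37, 8.52, 8.37 and 6.91.

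Polymerase and primase genes were lower with the mix. All 9 measured passed 2-fold, with a median of -1.87 and a range from -2.54 for pole3 to -1.04 for pole4, both small histone-fold subunits of polymerase epsilon. The catalytic subunit of polymerase delta, pold1, read 10.14, 10.07, 10.56, 10.06 and 8.42, and it was low on the mix array and highest with toluene. Its other probe set had 7.41 with toluene and 7.38 with DMSO, so the toluene value of the chosen probe set was not repeated. The subunits pola1 and pola2, which with primase lay down the first stretch of each new strand, had differences of -2.43 and -2.31, and the primase prim1 had -1.68. After loess normalization pold1, pole2 and pole4 fell short of 2-fold and 6 of 9 passed. The accessory subunits pold2, pold3 and pole2 lay at -1.87, -1.94 and -1.63.

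The sliding clamp, its loader and the single-strand binding protein RPA were mostly lower as well in the deposited values. Of 8 genes, 7 lay at least 2-fold below DMSO (median -1.71), where 27.8% of all genes did. After loess normalization 3 did, pcna, rfc1 and rpa3, with a median of -0.98, where 20.6% of all genes did. No share limited by level was computed after loess, so the count of 3 of 8 has no such background. The clamp pcna, often used as a marker of dividing cells, read 12.83, 12.91, 12.86, 12.90 and 11.13, lowest on the mix array, with a difference of -1.69. Together with pcna, the loader genes rfc3 and rfc4 and the RPA genes rpa1 and rpa2 had differences between -1.76 and -1.67. The other probe set of rfc4 gave -0.93, short of 2-fold. The large loader subunit rfc1 lay at -2.32, the small RPA subunit rpa3 at -2.45 and rfc5 at -0.68. The rfc5 values were 8.30, 8.38, 8.30, 8.39 and 7.62, and this clamp loader subunit was the one gene of the group within 2-fold of DMSO.

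Cyclins, their kinases and cdc25b were all at least 2-fold lower with the mix, 10 of 10, with a median of -4.39. B-type cyclins bind cdk1 to start mitosis, and ccnb2 read 12.82, 13.01, 13.07, 13.28 and 6.28, a gap of 93.1-fold. The ccnb1 probe set, of a type whose probes can match several transcripts, read 14.01, 14.004, 14.12, 14.25 and 8.26, and ccnb1l, a gene annotated as cyclin B1-like, read 10.35, 11.16, 10.74, 10.91 and 5.51. Each of them had its lowest value on the mix array, and the other 4 arrays did not come near it. Cyclin ccnb3, which acts in meiosis in mammals, read 8.79, 8.96, 9.25, 9.74 and 6.61 and differed by -2.18, with -1.76 to -1.26 on its 3 other probe sets. The chosen ccnb3 probe set is also of a type whose probes can match other transcripts.

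The A-type cyclins differed by similar amounts. The gene ccna1, in mammals a cyclin of germ cells, read 13.25, 13.26, 13.25, 13.36 and 7.38, and ccna2, the A cyclin of dividing body cells in mammals, read 12.34, 12.37, 12.22, 12.27 and 7.04. Their differences with the mix were -5.87 and -5.29. Cyclin E1 (ccne1), which with cdk2 opens the S phase, read 10.42, 10.23, 10.33, 10.49 and 6.47, a difference of -3.95. The kinases themselves had smaller gaps than the A, B and E cyclins other than ccnb3: cdk1 lay at -2.43, and cdk2, which read 10.13, 10.18, 10.20, 10.30 and 8.22, at -1.91. The phosphatase cdc25b, which removes the brake on cdk1, lay at -3.90, with -1.83 and -1.12 on its other probe sets.

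Mitotic kinases were split, with 3 of 5 at least 2-fold lower, 0 higher and a median of -1.63. The polo kinase plk1, needed for spindle assembly and exit from mitosis, read 12.42, 12.18, 12.03, 12.15 and 7.96, and aurora kinase A (aurka), which acts at the spindle poles, read 11.42, 11.58, 11.58, 11.63 and 7.09. On the mix array they were lower by 22.1-fold and 20.1-fold than with DMSO. The family member plk3, linked in mammals to stress responses, read 11.79, 11.83, 11.79, 11.92 and 10.16 and had a smaller gap of -1.63, and plk4, which starts centriole copying, lay just short of 2-fold. In contrast plk2b read 4.96, 5.03, 4.89, 4.82 and 5.80, a little higher on the mix array at 0.84, and all 5 of its values were below 7.02.

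Checkpoint and kinetochore genes were at least 2-fold lower with the mix in 13 of 14 cases. The 6 of the checkpoint group, cdc20 included, had a median of -1.93, and 4 of them rather than 5 passed after loess normalization. The APC activator cdc20, which starts the parting of chromosomes, read 11.003, 11.12, 11.01, 11.04 and 6.80, and mad2l1, the checkpoint protein that holds it back, read 11.60, 11.66, 11.63, 11.995 and 7.71. Their differences were -4.20 and -3.90, while bub3 lay at -2.17 and mad2l2, a polymerase zeta subunit rather than a checkpoint protein, at -1.69. The checkpoint kinase copy bub1ba read 8.45, 8.49, 8.37, 8.49 and 7.10, a difference of -1.35. The copy bub1bb read 5.10, 5.15, 5.02, 5.17 and 5.21, with no array apart from the rest and none at 7.02 or above, and its small difference of 0.11 turned negative after quantile normalization, at -0.26, and after loess normalization, at -0.40.

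All 8 kinetochore and passenger genes were lower by more than 2-fold, and their median was -2.93. The copies of survivin, a subunit of the chromosomal passenger complex with aurora B, differed by unequal amounts. birc5b, a maternal-effect gene in zebrafish, read 12.52, 12.69, 12.70, 12.90 and 6.42, a gap of 68.7-fold, and birc5a read 10.26, 10.45, 10.64, 10.67 and 8.51, a gap of 3.36-fold. The others were cenpk at -3.31, nuf2 at -3.10, ndc80 at -2.94, cenpt at -2.93, cenps at -2.48 and the motor cenpe at -2.30. The ndc80 and nuf2 proteins form the microtubule-binding arm of the kinetochore as a pair, and the values of both genes on the mix array were below 7.02.

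With the single compounds, none of the 68 genes was 2-fold apart from DMSO. The counts were 0 higher and 0 lower with benzene, where 1.65% of all genes were higher by that much and 0.842% lower. They were also 0 and 0 with toluene, against 1.74% and 0.535%, and 0 and 0 with formaldehyde, against 1.1% and 1.94%. At such rates about 1 of 68 genes or fewer would be counted in each direction, so these zeros say little about the members. Member medians were 0.04 with benzene, 0.00 with toluene and 0.07 with formaldehyde. The 3 differences share the DMSO array.

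**Figure D4:**
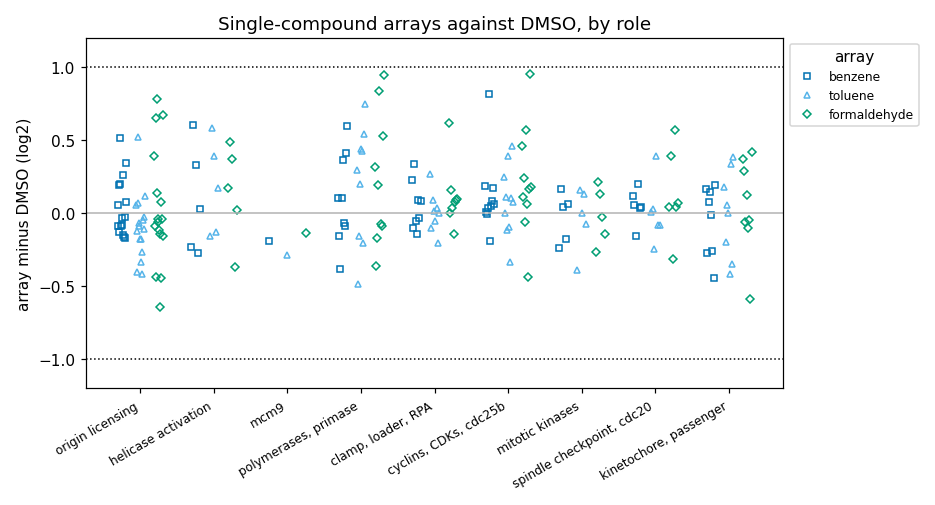
Difference of each single-compound array from DMSO (vertical axis, log2) for the 68 genes, grouped by role (horizontal axis); each symbol is 1 gene on 1 array, and dotted lines mark 2-fold. No symbol reaches the lines, and the formaldehyde values for ccnb3 (0.95) and pole4 (0.94) come closest.

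The 4 arrays without the mix lay within 0.08 to 0.95 of each other for each gene, with a median spread of 0.31. At a limit of 1.5-fold, 3 members were higher and 0 lower with benzene (4.29% and 3.34% of all genes), 1 higher and 0 lower with toluene (4.77% and 2.84%), and 7 higher and 2 lower with formaldehyde (4.61% and 5.61%). With benzene these were ccnb1l at 0.81, gins2 at 0.60 and pole4 at 0.60, and with toluene pole4 at 0.74. With formaldehyde ccnb3 lay at 0.95, pole4 at 0.94, pold2 at 0.84, orc6 at 0.78, mcm3 at 0.67, cdt1 at 0.65 and rpa3 at 0.62, against orc2 at -0.64 and cenpe at -0.59. The other probe sets of ccnb3 gave 0.17, 0.46 and 0.95 with formaldehyde, and that of mcm3 gave 0.145, short of 1.5-fold. With a single array for each compound, their size has no replicate check.

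Benzene and toluene differ by a methyl group, and their doses are not given, so the values are only set side by side. The pole4 values were 9.10 with benzene and 9.25 with toluene, gins2 had 10.05 and 10.03 and ccnb1l had 11.16 and 10.74. The members with the 3 largest differences between these arrays were cenps with 7.59 and 8.18, orc2 with 8.82 and 8.29, and pold1 with 10.07 and 10.56. The remaining members can be read from the plot of array values by gene.

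Genes of the same processes that are not members were read from lists. Of all genes, 27.8% were at least 2-fold lower with the mix and 20.6% higher, and of genes above 7.02, 41.6% were lower. Of 28 further S phase genes, 25 (89.3%) were at least 2-fold lower with the mix and 0 higher, with a median of -2.64. The 3 largest differences were those of nasp, a histone chaperone, at -4.47, the maintenance DNA methyltransferase dnmt1 at -3.96, and rrm1, the large subunit of ribonucleotide reductase, at -3.53. Of 57 further mitosis genes, 49 (86%) were at least 2-fold lower and 1 higher, with a median of -2.48, led by fbxo5, an inhibitor of the APC, at -4.79, the centrosomal kinase nek2 at -4.47 and wee2, the oocyte form of the kinase that restrains cdk1, at -4.44.

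The APC and cohesin, and the genes of G1, were read in the same way. Of 21 genes of the APC, the ubiquitin ligase that ends mitosis, and of cohesin, the ring that holds sister chromatids, 11 (52.4%) were at least 2-fold lower and 0 higher, with a median of -1.22. The APC subunits anapc10 at -3.13, cdc27 at -2.71 and cdc23 at -2.58 led them. Since 27.8% of all genes and 41.6% of genes above 7.02 were that much lower, this list was not far above the background. Of 32 genes of the G1 phase and of cell cycle transcription, 12 (37.5%) were at least 2-fold lower, between the 27.8% of all genes and the 41.6% of genes above 7.02, and 4 (12.5%) were higher, fewer than the 20.6% of all genes. This list was thus near the background. Its median was -0.65, and the 3 largest differences were e2f5 at -3.94, the ubiquitin ligase subunit skp2 at -3.81 and ccng2, a cyclin tied to cell cycle arrest in mammals, at 3.32.

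Most listed genes of body tissues lay on the other side of DMSO in the same comparison. With the mix, 15 of 19 intestine genes, 15 of 17 skin genes, 23 of 25 muscle genes, 17 of 21 liver genes, 7 of 12 erythrocyte genes and 5 of 9 lymphocyte genes were at least 2-fold higher, and 1 skin gene and 1 liver gene were at least 2-fold lower. Their medians were 2.595, 3.18, 2.22, 1.89, 2.28 and 1.49 in that order. Over all genes, 20.6% were at least 2-fold higher with the mix and 27.8% lower. The lymphocyte genes rag1 (0.07), rag2 (0.06) and pax5 (0.30) and the erythrocyte genes gata1a (0.59) and klf1 (0.94) were among those within 2-fold. The lymphocyte list also held polr1g (-0.97), entered under the older name cd3eap and a polymerase gene by its symbol. In the erythrocyte list, tmod4 (2.84) was counted as higher. With formaldehyde it lay at 1.14, where the erythrocyte median was -0.10 and the muscle median 0.68. Summed signals of the muscle list were 98140, 104274, 121721, 172211 and 287030, those of the liver list 41377, 39992, 34550, 57648 and 134920, and those of the skin list 20292, 33093, 32271, 14135 and 82039. Over the first 4 arrays the skin sum ran from 14135 to 33093 and the intestine sum from 6674 to 24975. The part of these tissues in the members' values was not tested.

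**Figure D5:**
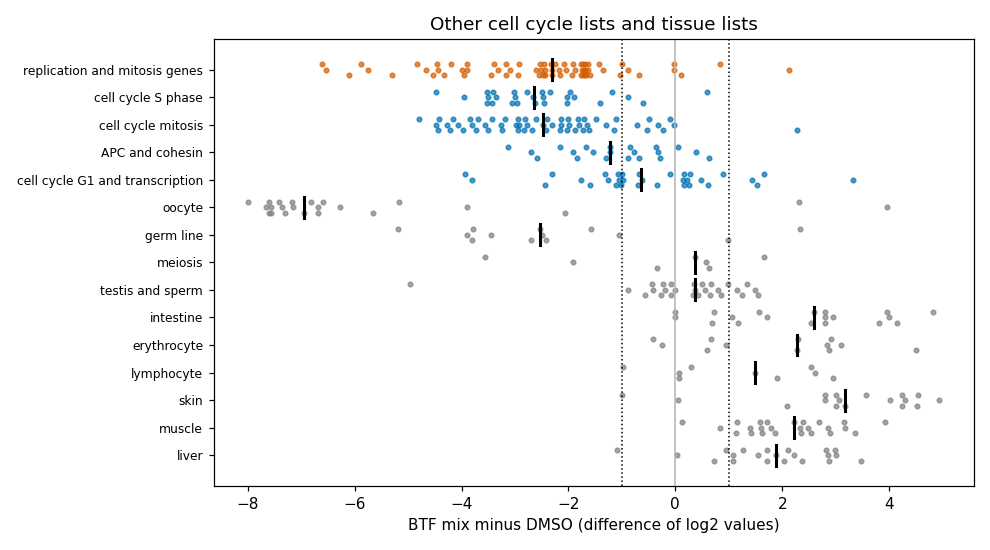
Difference between the BTF mix and DMSO arrays (horizontal axis, log2) for the replication and mitosis genes (orange), other cell cycle lists (blue) and tissue lists (grey); each point is 1 gene, bars are list medians and dotted lines mark 2-fold. The oocyte list has a median of -6.95, the cell cycle lists lie between -2.64 and -0.65, and lists of intestine, erythrocyte, lymphocyte, skin, muscle and liver lie above 1.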

How the data were processed

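Total RNA of 5 conditions was measured on 1 Affymetrix zebrafish array each, and samples were grouped by the treatment in the labels. The authors' deposited table gives a value for each probe set on each array, and the log2 scale was taken from the range of the values. Tools named are RMA, MAS5 and Affymetrix Expression Console 1.1, per the submitters' processing notes, which give no role for each. RMA includes a quantile step, which brings the distributions of arrays together. The deposited array medians were close but not equal, from 6.98 to 7.06. Differences are therefore read as relative to the other transcripts on an array. Control probe sets (115) were left out. Of the other 15502, 10795 had exactly 1 symbol in the platform annotation, 135 several and 4572 none. The 68 members had 78 probe sets, and 7 members had more than 1. All 68 had the same symbol in NCBI RefSeq (GRCz12tu), used for names and gene order only. No level filter was used, and 64 members had at least 1 array value at or above 7.02, the median over the table.

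Differences of log2 values were computed and those of at least 1 (2-fold) counted (Python 3.11.15, pandas 2.3.3). Alternatives used limma 3.58.1 for quantile and cyclic loess normalization. Only the counting of differences and their medians was tested, on copies of the DMSO array with added noise and planted shifts. The choice of probe sets under a shift, the normalizations and the gene lists were not part of that test. Members and gene lists were chosen with earlier results of these data known. Members set by rule for a row of 5 values were, per role, those with the largest and smallest difference with the mix and the highest mean. Any member 2-fold apart elsewhere and paralogs were added. Of these, rpa3, pole3 and pole4 are given without such a row. In each further cell cycle list the genes with the 3 largest differences are named. The oocyte, germ line and tissue genes named were chosen after their values were seen, as were 4 genes higher with the mix, foxm1 and stmn1b. The share among genes above 7.02, the counts per role after loess and the benzene and toluene values were also added then. A promoter motif search was planned and not run.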

Additional observations from a re-analysis of the deposited data

How the results depend on the processing

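Of the 80 values recomputed under alternatives, 73 stayed within their limits. These limits were 1.5 times for counts and, for medians, the median gap between probe sets of 1 gene. That gap was 0.17 with benzene, 0.18 with toluene, 0.20 with formaldehyde and 0.62 with the mix. Many of the 73 were counts of 0 or medians near 0 on single-compound arrays, so that number says little about the mix. With the mix, the count of members at least 2-fold lower ran from 50 (cyclic loess) to 63 (1.5-fold), and 1 member was higher under each normalization, filter and reference. Over all genes the share at least 2-fold lower was 20.6% after loess, against 27.8%. Cyclic loess moved the median to -1.68 and quantile normalization gave -2.12. Counting at 1.5-fold gave 2 members higher with the mix, 3 higher with benzene, 1 higher with toluene, and 7 higher and 2 lower with formaldehyde. Quantile normalization gave 1 member at least 2-fold higher with formaldehyde, ccnb3, at 1.01; the cause was not tested. The medians for benzene and toluene changed sign with the mean of the other single-compound arrays as reference, to -0.02 and -0.07. That for toluene also changed sign after quantile normalization, to -0.03. Each of these changes was within that gap. No paired analysis was possible because each group has 1 array. One array per condition limits every value.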

Other observations

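Germ line genes were mostly lower on the mix array. Over all genes, 27.8% were at least 2-fold lower there and 20.6% higher. Of 13 germ line genes, 11 were at least 2-fold lower with the mix and 1 was higher, with a median of -2.54; nanos3, a regulator of primordial germ cells, read 10.75, 11.26, 11.08, 11.66 and 5.57 in the order DMSO, benzene, toluene, formaldehyde and mix, and dazl, an RNA-binding protein of germ cells, read 10.56, 10.53, 10.53, 10.81 and 6.65. Meiosis and testis genes left little room for a lower value, since 4 of 7 and 22 of 27 already lay below 7.02 with DMSO. Of 7 meiosis genes, 2 were at least 2-fold lower and 1 was higher, with a median of 0.37, and sycp3, of the axis that pairs chromosomes, read 5.32, 5.45, 5.40, 5.33 and 5.89. Of 27 testis and sperm genes, 1 was at least 2-fold lower and 5 were higher (18.5%, below the 20.6% of all genes), with a median of 0.37; the steroid enzyme cyp17a1, which the ovary uses as well, was the lower one at -4.96, and gsdf, a growth factor of the gonad's supporting cells, read 7.04, 7.18, 7.17, 7.13 and 8.39. Summed signals of the testis and sperm list were 3324, 2668, 2741, 3407 and 2439. These sums include cyp17a1, which read 10.63, 10.10, 10.21, 10.74 and 5.67, and were not computed without it. The list's median values were 5.65, 5.81, 5.67, 5.81 and 6.34, highest on the mix array.

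In the list of G1 and cell cycle transcription, 4 of 32 genes (12.5%) were at least 2-fold higher on the mix array, fewer than the 20.6% of all genes, and they are given as values only. Cyclin D1 (ccnd1), which carries growth signals into G1, read 7.12, 7.36, 6.84, 6.49 and 8.78, and the transcription factors of the Myc family, myca and mycn, read 4.91, 5.44, 4.97, 4.74 and 6.45 and 5.59, 5.59, 5.49, 5.47 and 7.02. The cyclin ccng2 read 7.27, 7.35, 7.42, 7.23 and 10.59. In the mitosis list the gene at least 2-fold higher was stmn1b, a microtubule regulator of neurons, at 2.28. The factor foxm1, which switches on mitotic genes, read 7.81, 8.80, 8.65, 8.52 and 6.83, with differences from DMSO of 0.99, 0.83 and 0.71 on the single-compound arrays and -0.98 with the mix. These differences all share the single DMSO value of 7.81, so those of the single compounds are not separate observations. The gene was named after its values were seen.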
